A study of Homo sapiens with 20 samples.

Results

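RAB13, NET1, KIF1C, TRAK2, PITPNM3 and CDC42BPG are 6 of the 17113 protein-coding genes in a count table of cells and extracellular vesicles from human colorectal cancer lines. They were chosen by symbol for a large rise from cells to vesicles across the lines. The difference between the compartments thus picked them and is given here as a description without a test. Each was higher in vesicles in 10 of 10 lines, but in SNU-C1 the fold was 1.02 for NET1 and 1.23 for TRAK2. All 6 passed the filter on low counts. The series holds 20 libraries from 10 established adenocarcinoma lines, namely COLO-201, HCT 116, HT-29, LoVo, LS1034, LS123, LS513, SNU-C1, SW480 and WiDr. The labels give cecum as the tissue of LS1034 and LS513 and colon for the others, and no line was treated. Each line gave 1 library of total cell RNA and 1 of RNA from the vesicles it released, membrane-bound particles shed into serum-containing medium. Cell RNA was depleted of ribosomal RNA and made into stranded libraries, whereas vesicle RNA was amplified with a low-input kit and cut by tagmentation, per the labels' protocols. The kit thus differs wherever the compartment does, and the contributions of kit and compartment cannot be told apart.

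RAB13 is a small GTPase of the RAB8 branch that acts in membrane traffic to cell junctions and the leading edge. NET1 is a guanine nucleotide exchange factor for RHOA, and KIF1C is a kinesin that carries cargo toward the plus ends of microtubules. TRAK2 links mitochondria to motor proteins, PITPNM3 belongs to the phosphatidylinositol transfer family, and CDC42BPG is an MRCK-type kinase that binds CDC42. The mRNAs of RAB13, NET1, KIF1C and TRAK2 are known from other cells as transcripts carried to the tips of protrusions. That transport involves microtubules, the APC protein and purine-rich stretches of the 3′ untranslated region (UTR), and mature mRNA held at the cell edge can be translated there.

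The purine-rich stretches are shown first because this sequence feature is the one known to localise several of these mRNAs, and because the 6 genes differ in it. Each line below gives the 30 bases with the most purines in the longest annotated 3′ UTR, on the transcript strand, with capitals marking a motif of GAAG preceded by a purine and followed by 2 purines. Overlapping matches run together. A sequence wholly in lower case has no match.
RAB13: aaaaaaGGAAGAGagaGGAAGGGAGAAGGG
NET1: gagttaaaagaaaaagagaggaaaagagag
KIF1C: ggaggctgaggaaaGGAAGAGggcacggag
TRAK2: gaaagggggaatggaggaatggaaataaaa
PITPNM3: agagaGGAAGAGagagagagagaGGAAGAG
CDC42BPG: AGAAGAAGGGaagatagAGAAGGAgggaaa
All lie in 3′ UTR exons of GENCODE release 29 on GRCh38, a build other than the hg19 build of the counts: RAB13 at chr1:153981911-153981940 (minus strand), NET1 at chr10:5457954-5457983 (plus), KIF1C at chr17:5024308-5024337 (plus), TRAK2 at chr2:201380395-201380424 (minus), PITPNM3 at chr17:6452954-6452983 (minus) and CDC42BPG at chr11:64823973-64824002 (minus).

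RAB13 and CDC42BPG had the densest motifs of the 6. The RAB13 UTR of 482 bases held 5 motifs, all within 200 bases, which is 10.4 per kb. Of 16135 genes with an annotated 3′ UTR of at least 100 bases, 0.20% had as high a density and 0.79% as many motifs within 200 bases. The CDC42BPG UTR of 1086 bases held 9 motifs (8.29 per kb), 7 of them within 200 bases, a clustering matched by 0.24% of UTRs. TRAK2 had 5 motifs in 3336 bases, PITPNM3 4 in 4074 and KIF1C 3 in 4250, and at least 28.4% of UTRs were as dense. NET1 had 0 motifs in 1469 bases, although 28 of its 30 richest bases were purines, as in 10.1% of UTRs. Over all UTRs, 65.5% held at least 1 motif on the transcript strand and the median density was 0.80 per kb. On the opposite strand RAB13 had 0 matches, NET1 1, CDC42BPG 1, KIF1C 2, TRAK2 2 and PITPNM3 15. In the shortest annotated UTRs RAB13, NET1, KIF1C and CDC42BPG kept their counts, whereas TRAK2 had 0 and PITPNM3 1. The bar plot of motif density places the 6 genes beside their paralogs.

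**Figure D1:**
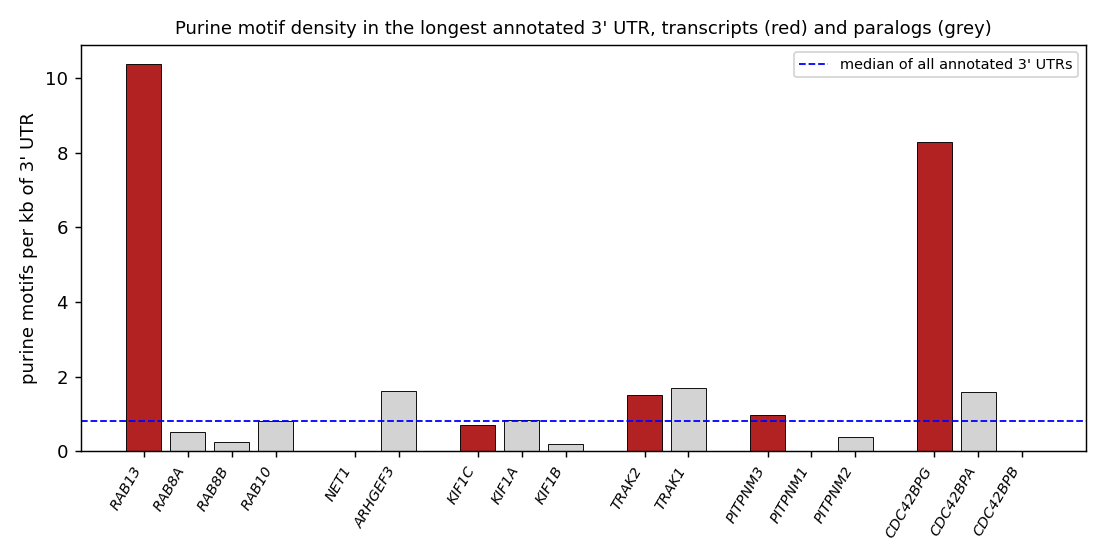
Purine motifs per kb of the longest annotated 3′ UTR (y axis) for the 6 genes (red) and their 11 paralogs (grey); the dashed line is the median of 16135 UTRs. RAB13 (10.4 per kb) and CDC42BPG (8.29 per kb) stand above every paralog plotted, and NET1 has no bar because its UTR held 0 motifs.

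The libraries differed in depth and in a background of reads that touch vesicle values. Cell libraries held 24.8 to 37.4 M counts and vesicle libraries 1.75 to 24.4 M. Reads in vesicles also fell on 2035 genes that never exceeded 10 counts in cells, and their reads per kb imply that 2.06% (SW480) to 50.3% (SNU-C1) of vesicle counts would come from such a background. The intestinal epithelial markers (10 genes, among them EPCAM, KRT8 and VIL1) were present in both compartments, with a summed level of 2710 to 22312 CPM (counts scaled to a common library size, here with TMM factors) in cells and 1166 to 17502 CPM in vesicles. Markers of fibroblasts and endothelium summed to 0.26 to 12.2 CPM in cells and 21.6 to 228 CPM in vesicles. Those of erythroid cells and platelets went from 0.14 to 10.3 CPM in cells to 2.97 to 193 CPM in vesicles, and those of hepatocytes and serum from 0.11 to 5.77 CPM to 7.36 to 96.8 CPM. The 4 leukocyte markers, led by LYZ, reached 3298 CPM in HT-29 cells and 887 CPM in HT-29 vesicles. No marker was at 0 in all libraries, and the part of these cell types in the values below was not tested. HT-29 resembled WiDr in cell RNA (r = 0.86 over 10033 genes, of deviations from the mean of the cell libraries), and HCT 116 resembled LS123 (r = 0.81), whereas in vesicle RNA the same pairs had r = -0.06 and -0.17. The lines may therefore not all be independent samples. For the genes named below, calls or correlations that changed without WiDr and LS123 are given with both values.

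All genes together give the scale for the 6. The edgeR quasi-likelihood test with cell line as a block and Benjamini-Hochberg adjustment (threshold 0.05) called 4322 of 15130 genes higher in vesicles (28.6%) and 4254 lower (28.1%). That split depended on scaling: it was 6957 higher and 1759 lower with upper-quartile scaling. Among the 10033 genes that averaged 10 CPM or more in cells, 535 were called higher (5.33%) and 4235 lower (42.2%). The median log2 fold change was 0.01 over all genes tested and -0.53 over the better expressed ones. All 6 genes were on the higher side, which follows from how they were chosen.

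RAB13 was the most strongly shifted of the 6. In cells it ranged from 14.6 CPM in LS1034 to 55.0 in HCT 116, with a median of 43.7, and in vesicles from 283 CPM in SNU-C1 to 6737 in HCT 116, with a median of 2423. The lowest vesicle value therefore lay well above the highest cell value. By line the fold over cells was 12.2 in SNU-C1, 20.6 in LS123, 31.4 in HT-29, 41.9 in LS513, 59.1 in COLO-201, 78.6 in WiDr, 122 in both LoVo and HCT 116, 133 in LS1034 and 147 in SW480. The fitted log2 fold change was 5.92 ± 0.47 (SE, n = 10 lines). A gene of middling abundance in cells, RAB13 had a median rank of 3637 among 16815 genes ordered by CPM per kb of exon, against a median rank of 17 in vesicles. It was the most counted gene of the LoVo vesicle library, with 27764 reads or 0.86% of the total. A CPM value is a share of the sequenced RNA, so more RAB13 RNA per vesicle and less of other RNA cannot be told apart.

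NET1 had the highest mean level of the 6 in both compartments, although RAB13 (LoVo, HCT 116, LS513) or KIF1C (SNU-C1, LS123) exceeded it in 5 vesicle libraries, and KIF1C in LS123 cells. Its cell level was 373 ± 258 CPM (SD, n = 10), from 91.7 in LS123 to 1030 in COLO-201 with a median of 323, and its vesicle level was 5784 ± 5163 CPM, from 399 in SNU-C1 to 13990 in LS1034 with a median of 4715. NET1 led the count ranking of the LS1034 and SW480 vesicle libraries, with 82539 and 228215 reads. It was the only one of the 6 whose groups overlapped: SNU-C1 vesicles, LS513 vesicles (1007 CPM) and LS123 vesicles (721 CPM) lay below COLO-201 cells. Within lines the fold ran from 1.02 in SNU-C1, where 392 CPM in cells stood beside 399 CPM in vesicles, to 42.3 in HCT 116. The SNU-C1 value depended on scaling, since without TMM factors the NET1 fold there was 2.42. The log2 fold change over lines was 3.57 ± 0.53 (SE, n = 10).

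The transport genes KIF1C and TRAK2 followed. KIF1C ranged from 74.97 CPM (LoVo) to 185 CPM (WiDr) in cells around a median of 117, and from 519 CPM (SNU-C1) to 5009 CPM (WiDr) in vesicles around a median of 1624. Its groups did not overlap, and its log2 fold change was 3.88 ± 0.42 (SE, n = 10), with line folds of 4.31 to 39.1. TRAK2 ranged from 28.7 CPM (LS1034) to 104 CPM (SNU-C1) in cells, median 64.4, and from 128 CPM (SNU-C1) to 4098 CPM (SW480) in vesicles, median 1344. Its groups did not overlap but came close, since SNU-C1 had both the highest cell level and the lowest vesicle level. The TRAK2 log2 fold change was 4.22 ± 0.55 (SE, n = 10), with line folds of 1.23 in SNU-C1 to 79.8 in SW480. Without TMM factors the SNU-C1 fold was 2.93.

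PITPNM3 and CDC42BPG were scarce in cells and were the lowest of the 6 in every vesicle library, the nearest being LoVo, with 1031 CPM of PITPNM3 beside 1552 CPM of TRAK2, and SNU-C1, with 72.3 CPM of CDC42BPG beside 128 CPM of TRAK2. PITPNM3 had 0.62 CPM in LS1034 cells, on 18 reads, and 21.3 CPM in LoVo cells, with a median of 9.97. In vesicles it ranged from 42.5 CPM in LS1034 to 1031 CPM in LoVo, with a median of 109, so that LoVo was highest and LS1034 lowest in both compartments. CDC42BPG ranged from 5.79 CPM (LoVo) to 19.4 CPM (LS123) in cells, median 13.3, and from 44.9 CPM (LS513) to 255 CPM (LS1034) in vesicles, median 108. Neither gene's groups overlapped. The log2 fold changes were 4.20 ± 0.47 for PITPNM3 and 3.28 ± 0.33 for CDC42BPG (SE, n = 10). On a scale per kb of exon the median vesicle levels of the 6 were 1129 CPM per kb for NET1, 881 for RAB13, 189 for KIF1C, 177 for TRAK2, 17.7 for CDC42BPG and 10.3 for PITPNM3. The ranges over lines of neighbours in that order overlapped.

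**Figure D2:**
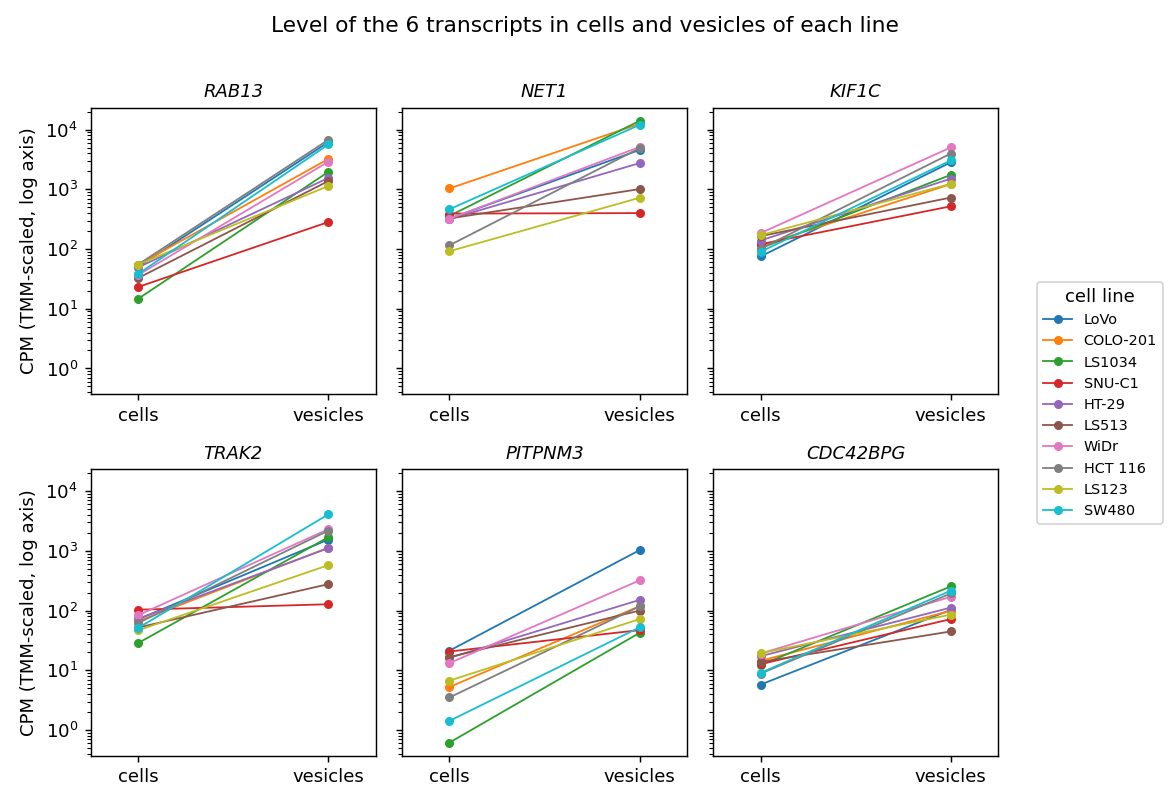
CPM (TMM-scaled, log axis) of each of the 6 genes in cells and vesicles, 1 line per cell line joining its 2 libraries. The vesicle end is the higher in every joined pair, although NET1 (392 to 399 CPM) and TRAK2 (104 to 128 CPM) are nearly level in SNU-C1.

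Together the 6 genes took a share of 0.0525% ± 0.0196 (SD, n = 10) of cell library counts and 1.45% ± 0.888 of vesicle library counts, from 0.284% in SNU-C1 to 2.58% in LS1034. For the 4 abundant genes the counts far exceeded those expected from the background described above. RAB13 had 37.6 times (SNU-C1) to 7788 times (SW480) the reads expected from it, NET1 35.0 to 10910 times, KIF1C 22.1 to 1350 times and TRAK2 6.17 to 2055 times. The margin was narrow for the scarce genes in some lines. PITPNM3 had 162 reads against 99.5 expected in SNU-C1, 251 against 97.7 in LS1034 and 255 against 96.0 in LS123, and CDC42BPG had 248 against 57.3 in SNU-C1. With the expected reads subtracted and the scaling computed anew on what remained, all 6 genes were higher in vesicles in 10 of 10 lines. The smallest differences were then log2 1.23 for PITPNM3, 1.38 for NET1 and 1.45 for TRAK2, each in SNU-C1. Before subtraction they were 1.19, 0.03 and 0.30 there. Only 39.1 of the 1368 NET1 reads in SNU-C1 vesicles were expected from the background, so the NET1 change there reflects mostly the new scaling. In the 5 lines with a lower background share RAB13 differed by log2 6.08 ± 0.96 (SD), and in the 5 with a higher share by 5.65 ± 1.57. The matching values were 3.69 ± 1.46 and 3.22 ± 1.97 for NET1, 3.88 ± 1.31 and 3.81 ± 1.30 for KIF1C, 4.38 ± 1.46 and 3.80 ± 2.12 for TRAK2, 4.08 ± 1.12 and 4.13 ± 1.91 for PITPNM3, and 3.23 ± 1.23 and 3.26 ± 0.98 for CDC42BPG.

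The size of the vesicle shift varied between lines, and it varied alike for all 6 genes. Averaged over the 6, the log2 difference was 1.62 in SNU-C1, 2.64 in LS513, 3.23 in LS123, 3.56 in HT-29 and 4.04 in COLO-201, and in these 5 lines every gene lay below its own median over the lines. It was 4.60 in WiDr, 5.02 in LoVo, 5.37 in HCT 116, 5.42 in LS1034 and 5.49 in SW480, where every gene lay above its median. The similar pairs WiDr and HT-29, and LS123 and HCT 116, were each split between the 2 sides. The plot of differences by line shows this order beside the background share, which was both low and high on either side. Spearman rho of the difference with that share over the 10 lines was nevertheless negative for all 6 genes. It was -0.52 for RAB13, -0.48 for TRAK2, -0.44 for CDC42BPG, -0.41 for NET1, -0.36 for KIF1C and -0.25 for PITPNM3, and was not tested. Over the 15 pairs of genes, the Pearson r of the differences across the 10 lines was 0.76 to 0.96 with a median of 0.86. All such points share their libraries and scaling factors, and r is given as a description.

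**Figure D3:**
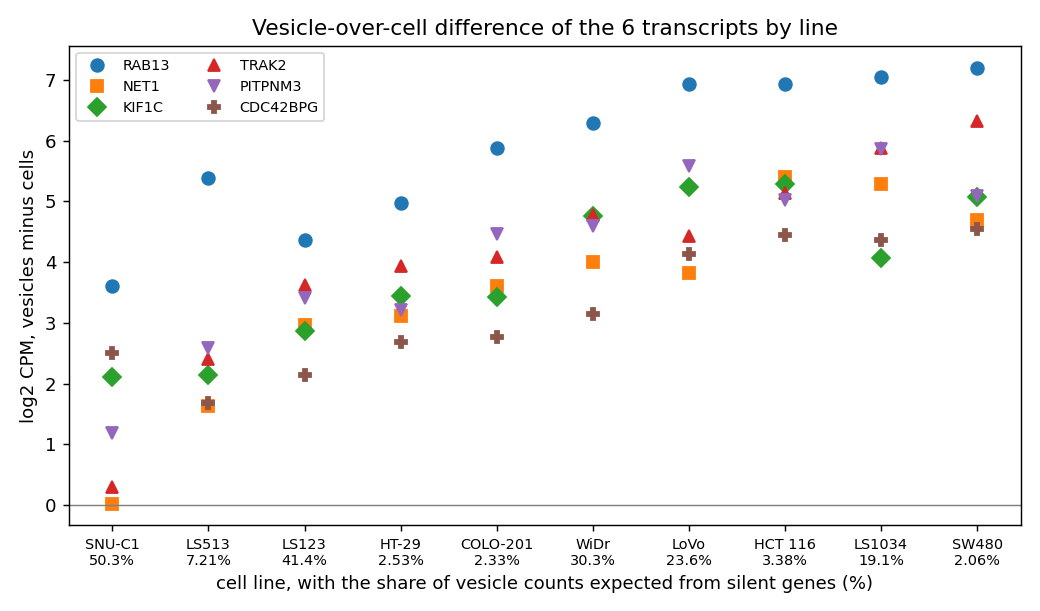
Log2 CPM in vesicles minus log2 CPM in cells (y axis) for the 6 genes in each line, lines ordered by the mean of the 6; the percentage under each line is the share of vesicle counts expected from genes silent in cells. The mean climbs from 1.62 in SNU-C1 to 5.49 in SW480, and RAB13 is the highest point in every line.

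The 6 genes varied together more closely in vesicle than in cell libraries. In vesicle libraries the r between pairs of the 6 ranged from -0.09 (PITPNM3 with CDC42BPG) to 0.90 (KIF1C with TRAK2), with a median of 0.75. In cell libraries it ranged from -0.25 (NET1 with KIF1C) to 0.91 (KIF1C with CDC42BPG), with a median of 0.11. No r between pairs of other genes is given for comparison, so this contrast cannot be called particular to the 6. The TMM factors also spread more in vesicle libraries (0.83 to 1.96) than in cell libraries (0.77 to 0.97), and their part was not tested. PITPNM3 was the exception in vesicles, at 0.13 with NET1 and 0.27 with TRAK2, and its cell level varied over lines by an SD of 1.68 on the log2 scale against 0.43 to 0.98 for the other 5. As a comparison for the shift, the r of RAB13's difference with that of other genes had a median of 0.11 over 10032 genes and was 0.83 to 0.93 for the 5 others. The 6 were chosen on the size of these same differences, so this r is a description and no test of a shared behaviour. Some genes that were not higher in vesicles followed the order of lines as closely, PINK1 (r = 0.90, log2 fold change 0.06 ± 0.27) and SSR2 (r = 0.85, log2 fold change -1.33 ± 0.20) among them; they were picked after their values were seen.

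Whether a line's cell level carried over to its vesicles was tested over the 10 lines. The choice of genes did not use the order of lines. It did use both levels in every line, so the p values below are not wholly free of that choice. None of the 6 passed. With log2 CPM, a permutation test with 100000 resamples (two-sided) and Benjamini-Hochberg adjustment over the 6 genes, PITPNM3 had the highest correlation at Pearson r = 0.56 (p = 0.0887, adjusted p = 0.442; Spearman rho = 0.47, p = 0.179, adjusted p = 0.4664). RAB13 had r = 0.45 (permutation p = 0.198, adjusted p = 0.442; rho = 0.47, p = 0.178, adjusted p = 0.4664) and NET1 r = 0.43 (p = 0.221, adjusted p = 0.442; rho = 0.42, p = 0.233, adjusted p = 0.4664). The other 3 were negative: KIF1C at r = -0.24 (permutation p = 0.499, adjusted p = 0.553; rho = -0.25, p = 0.493, adjusted p = 0.581), TRAK2 at -0.30 (p = 0.398, adjusted p = 0.553; rho = -0.20, p = 0.581, adjusted p = 0.581) and CDC42BPG at -0.22 (p = 0.553, adjusted p = 0.553; rho = -0.36, p = 0.315, adjusted p = 0.472). Without the 2 lines farthest from the median cell level, r over 8 lines was 0.16 for RAB13, -0.05 for NET1, -0.61 for KIF1C, 0.37 for TRAK2, 0.29 for PITPNM3 and -0.29 for CDC42BPG. The values of RAB13 and PITPNM3 thus shrank, those of NET1 and TRAK2 changed sign, and those of KIF1C and CDC42BPG became more negative. Without SNU-C1 alone the r of TRAK2 was 0.12. Without WiDr and LS123 r was 0.65 for RAB13, 0.28 for NET1, -0.63 for KIF1C, -0.49 for TRAK2, 0.53 for PITPNM3 and -0.22 for CDC42BPG, and again none passed (smallest adjusted p = 0.276, permutation test). Over the 10033 better expressed genes the median r was 0.44 (quartiles 0.20 and 0.64), and 3.27% of them had a lower r than KIF1C, 2.33% than TRAK2 and 3.87% than CDC42BPG. These shares set chosen genes beside genes not chosen and are a description.

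**Figure D4:**
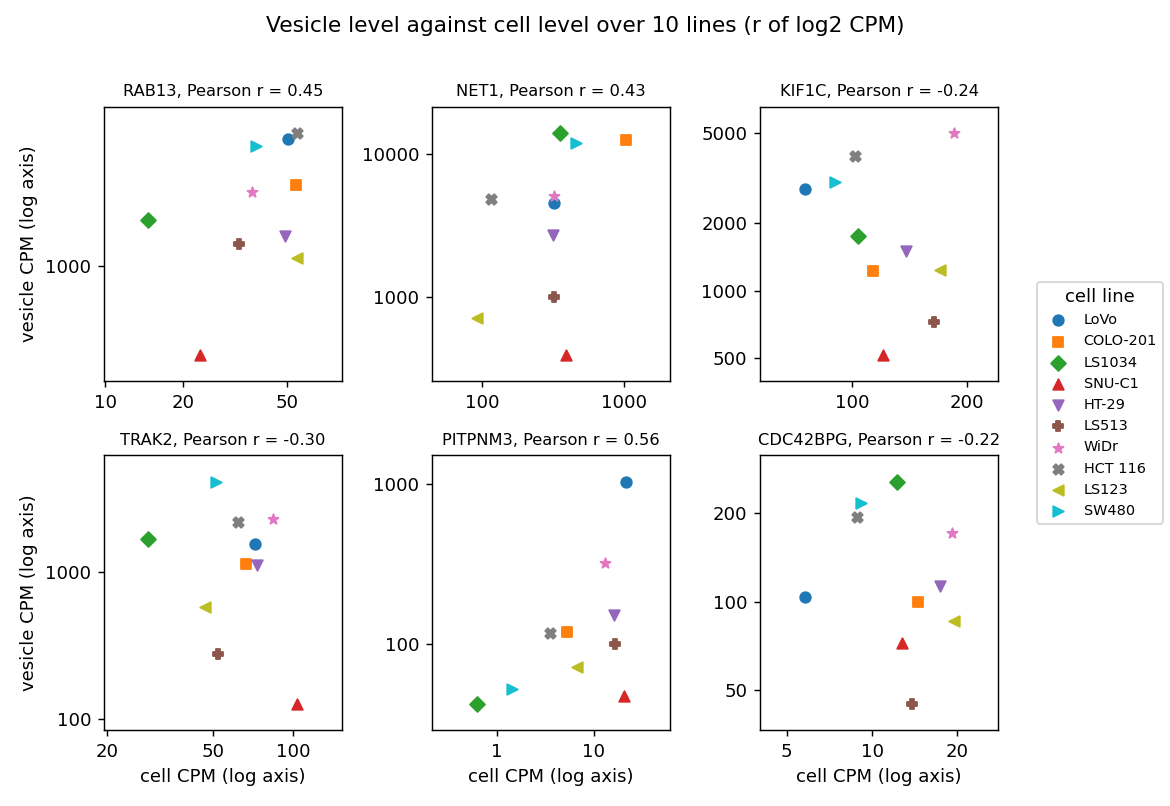
Vesicle CPM (y, log axis) against cell CPM (x, log axis) for each of the 6 genes, 1 point per line. LS1034 has the lowest RAB13 level in cells (14.6 CPM) but 1957 CPM in vesicles, and SNU-C1 has the highest TRAK2 level in cells (104 CPM) with the lowest in vesicles (128 CPM).

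Lines differed more in vesicles than in cells for 5 of the 6. On the log2 scale the SD over lines was 0.63 in cells and 1.39 in vesicles for RAB13, 0.98 and 1.81 for NET1, 0.43 and 1.06 for KIF1C, 0.51 and 1.52 for TRAK2 and 0.55 and 0.78 for CDC42BPG. PITPNM3 was the reverse, at 1.68 and 1.41. The median over 10033 genes was 0.63 in cells and 0.88 in vesicles, so a wider spread in vesicles was also the case for the typical gene.

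Of 11 close relatives of the 6, 2 rose in vesicles and 5 fell by the edgeR test. Their median log2 fold change was -0.75, against 0.01 over all genes tested and -0.53 over the better expressed ones, of which 5.33% were called higher and 42.2% lower. The 5 of 11 that fell were thus near the share of expressed genes that did. The 2 that rose, KIF1A and PITPNM2, averaged under 10 CPM in cells, and of all genes tested 28.6% were called higher. RAB10, a GTPase of the RAB8 branch that acts in secretory traffic, fell by 1.59 on the log2 scale (SE 0.36, adjusted p = 0.00166), with a cell level of 725 ± 220 CPM and a vesicle level of 285 ± 188 CPM (SD, n = 10), and was lower in 10 of 10 lines. RAB8A was nearly level at -0.11 ± 0.20 (adjusted p = 0.658), with 69.8 CPM in cells and 63.7 CPM in vesicles, and RAB8B was at -0.92 ± 0.42 (adjusted p = 0.0764). Without WiDr the edgeR test called RAB8B lower, at -1.22 (adjusted p = 0.00285), and without WiDr and LS123 it was at -1.29 (adjusted p = 0.00420). The RAB13 difference exceeded that of RAB8A by log2 6.003 ± 1.24 (SD), of RAB8B by 6.70 ± 2.17 and of RAB10 by 7.52 ± 1.26, in 10 of 10 lines each. The 6 genes were chosen on this difference, so such gaps follow in large part from the choice and are no result. KIF1C exceeded KIF1A in 2 of 10 lines, and NET1 exceeded ARHGEF3 and PITPNM3 exceeded PITPNM2 in 9. In the remaining pairs the chosen gene had the larger difference in 10 of 10 lines.

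Relatives of the other genes gave a similar picture, apart from KIF1A and PITPNM2. ARHGEF3, the nearest relative of NET1, fell by 0.75 (adjusted p = 0.0170), KIF1B, a mitochondrial and vesicle kinesin, fell by 0.96 (adjusted p = 0.00294), TRAK1 fell by 0.92 (adjusted p = 0.000269) and CDC42BPA fell by 1.27 (adjusted p = 0.000321) by the edgeR test. PITPNM1 at -0.33 ± 0.19 (SE) and CDC42BPB at -0.30 ± 0.26 did not pass. KIF1A, a neuronal kinesin, rose by 7.33 ± 1.24 (SE, adjusted p = 0.000255, edgeR), or by 3.98 without the replicate block (adjusted p = 0.00584, edgeR). Its mean level was 3.09 CPM in cells and 46.9 CPM in vesicles, with 3136 vesicle reads in all against 1149 expected from the background. PITPNM2 rose by 2.53 ± 0.44 (SE, adjusted p = 0.000212, edgeR), from 6.33 CPM to 33.0 CPM and in 9 of 10 lines, with 2110 reads against 631 expected. Other scalings raised every fold: the number lower fell from 5 to 3 with DESeq2 size factors and to 2 with library size alone or upper-quartile scaling, where RAB10 and CDC42BPA were still lower, and RAB8A, at 0.63, passed as higher in the last. Without LoVo ARHGEF3 was at -0.41 and did not pass (adjusted p = 0.203, edgeR). The calls for ARHGEF3, KIF1B and TRAK1 were lost under 1 or more of these scalings, while those of KIF1A and PITPNM2 were made under every alternative run.

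**Figure D5:**
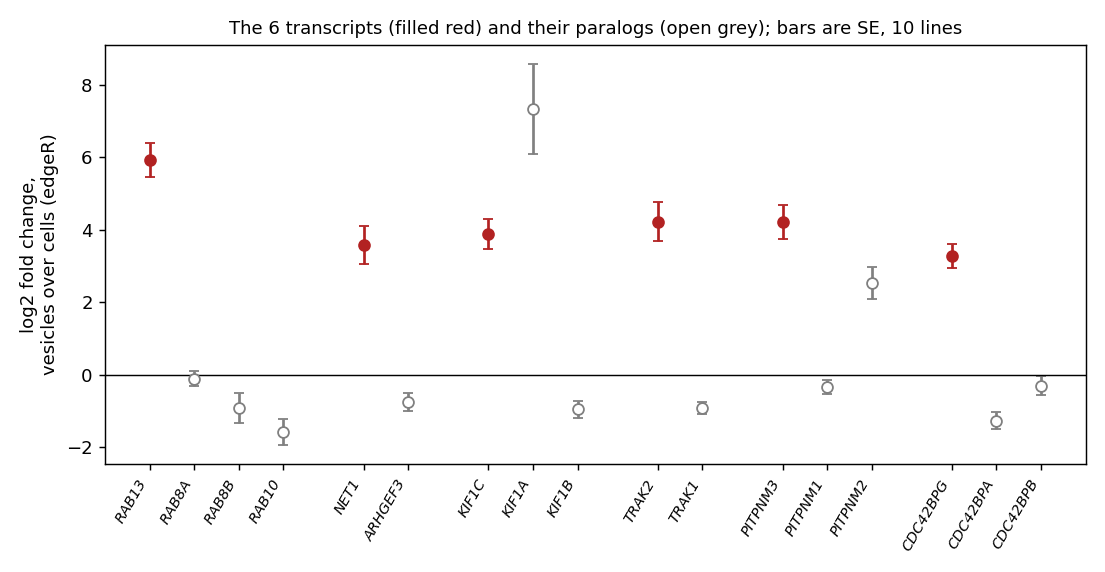
Log2 fold change of vesicles over cells from edgeR (y axis) with its SE over 10 lines, for the 6 genes (filled red) grouped with their paralogs (open grey). Paralogs lie between -1.59 and 0 except PITPNM2 (2.53) and KIF1A (7.33), the latter with the widest bar.

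The mRNAs of proteins that bind the 6 or are acted on by them gave counts near those of expressed genes in general. Of 25 listed partners 24 were in the table by the symbol listed, 2 rose and 9 fell, with a median of -0.53, beside 5.33% higher, 42.2% lower and a median of -0.53 over the better expressed genes. The smallest adjusted p belonged to OGT, an O-GlcNAc transferase that binds TRAK proteins, which fell by 2.11 (SE 0.28, adjusted p = 2.44e-05, edgeR), and to RAB6A, a Golgi GTPase that binds KIF1C, which fell by 1.65 (SE 0.34, adjusted p = 0.000858, edgeR). RHOA, the target of NET1, was at -0.52 ± 0.32 (SE, adjusted p = 0.174, edgeR) and CDC42, which binds the MRCK kinases, fell by 1.17 (adjusted p = 0.00115, edgeR), or by 0.77 without LoVo (adjusted p = 0.0747, edgeR). MICALL1 and MICALL2, effectors of RAB13, were at 0.25 ± 0.27 and 0.98 ± 0.47 (SE; adjusted p = 0.453 and 0.0867, edgeR), and without LoVo MICALL2 passed as higher at 1.03 (adjusted p = 0.0255, edgeR). The 2 that rose were scarce: LURAP1, an adaptor of the MRCK kinases, had 113 vesicle reads against 128 expected from the background, and MYL9, a myosin light chain, 738 against 194, with its call lost when those reads were subtracted and without the replicate block (adjusted p = 0.214, edgeR). These last 6 genes were named for their role or as the small count, after their values were seen. Without LoVo only 2 partners were lower, and library size alone gave 5.

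Of 5 other mRNAs known from cell protrusions 2 rose and 1 fell, with a median of 0.27, beside 28.6% higher, 28.1% lower and a median of 0.01 over all genes tested. All but DDR2 belonged to the better expressed genes, of which 5.33% were higher and 42.2% lower, with a median of -0.53. DDR2, a collagen receptor kinase, rose by 3.51 ± 0.75 (SE, adjusted p = 0.00105, edgeR), from 0.70 to 13.3 CPM, but its 616 vesicle reads were fewer than the 739 expected from the background. DYNLL2, a dynein light chain, rose by 0.80 ± 0.28 (SE, adjusted p = 0.0232, edgeR) and was higher in 10 of 10 lines, from 12.5 ± 6.32 to 20.6 ± 8.81 CPM (SD); the call was lost with the background reads subtracted, without HT-29 (0.72, adjusted p = 0.0627, edgeR) and without the replicate block (0.74, adjusted p = 0.0841, edgeR). CYB5R3, a cytochrome b5 reductase, fell by 0.64 (SE 0.24, adjusted p = 0.0305, edgeR), a call lost in 12 of 18 alternatives, among them leaving out LoVo, LS1034, HT-29, LS513, WiDr or LS123 in turn (adjusted p = 0.0527 to 0.222, edgeR). Without WiDr and LS123 together CYB5R3 was at -0.41 and did not pass (adjusted p = 0.169, edgeR). PKP4, a junction plakophilin, was at -0.20 ± 0.21 and KANK2, a cortical adhesion protein, at 0.27 ± 0.32 (SE; adjusted p = 0.428 and 0.489, edgeR). Beta-actin and the Arp2/3 subunits, the classic actin mRNAs of the leading edge, had 0 of 10 higher and 2 lower, ACTR2 at -1.96 ± 0.42 and ACTR3 at -1.50 ± 0.30 (SE; adjusted p = 0.00122 and 0.000610, edgeR), and a median of -0.26, beside 5.33% higher, 42.2% lower and -0.53 over the better expressed genes. With upper-quartile scaling 5 of these 10 were higher, with library size alone 4, and ACTR2 and ACTR3 stayed lower.

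Of 13 factors that carry or bind localised transcripts 1 rose and 9 fell at the mRNA level, with a median of -0.97, beside 5.33% higher, 42.2% lower and a median of -0.53 over the better expressed genes. STAU1, a double-stranded RNA-binding transport factor, fell by 1.17 (SE 0.21, adjusted p = 0.000276, edgeR) and was lower in 10 of 10 lines. APC was at -0.01 ± 0.35 (SE, adjusted p = 0.989, edgeR), with 52.5 CPM in cells and 64.8 CPM in vesicles. The factor that rose, IGF2BP1, had 1591 vesicle reads against 627 expected, and its call was lost with those reads subtracted and without the replicate block (adjusted p = 0.567, edgeR). The number lower was 3 without LoVo, 5 with library size alone and 2 with upper-quartile scaling.

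The largest differences among expressed genes mostly belonged to genes that were near 0 in most cell lines, which the 6 were not. Ordered by log2 fold change among those 10033 better expressed genes, they took places 6, 38, 39, 50, 58 and 78. The 6 were chosen on this difference. Their places in this paragraph, and the lack of overlap in 5 of them, therefore follow in large part from that choice and are no result. Each of the 72 other genes down to place 78 had a median under 3 CPM in cells (2.85 at most), against 9.97 CPM or more for the 6, and only 6 of the 72 were higher in vesicles in 10 of 10 lines. The 5 genes above RAB13 were ST6GAL2, COL6A2, COL5A1, CDK15 and NLRP2, at 6.12 to 7.21 with medians of 0 to 0.23 CPM in cells. The 6 just below CDC42BPG were NYNRIN, NRCAM, IGF2, GMFG, ADAM8 and NAV2, at 3.23 to 3.28 with medians of 0.29 to 2.32 CPM. When genes were instead required to have a median of at least 5 CPM in cells, a limit set after the data were seen, the 6 took 6 of the first 7 places among 10218 genes, with TTN (3.97 ± 0.65, SE) between PITPNM3 and KIF1C and SAMD4A (3.18 ± 0.37) next after CDC42BPG. PITPNM3, with a median of 9.97 CPM, would not meet a limit of 10 CPM. In 11 of the 10033 genes (0.110%) the lowest vesicle value exceeded the highest cell value, and 5 of the 11 were RAB13, TRAK2, PITPNM3, KIF1C and CDC42BPG. The others were BCL2L2, UBXN6, NSRP1, PPP1R14B, ENDOV and PSMD9, with log2 fold changes of 0.89 to 1.97.

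Genes most like RAB13 and NET1 over the 10 lines were sought by the Euclidean distance between their 10 log2 differences. The 6 genes were chosen on these differences, so that their nearness to one another follows in large part from the choice and is no result. The nearest 5 genes to RAB13 were the 5 others described here, at distances of 5.82 (PITPNM3) to 8.54 (CDC42BPG), followed by COL5A1, PLEKHA4, PCDH19, TH, RASSF3, SLC1A2, MYH7B and ANP32B at 8.64 to 10.4. COL5A1, PCDH19, TH, SLC1A2 and MYH7B had medians under 1 CPM in cells. The nearest to NET1 were TRAK2 at 2.46, PITPNM3 at 2.70, KIF1C at 2.99 and CDC42BPG at 3.21, followed by PLEKHA4, ANP32B, MTURN, RASSF3, UACA, BCL2L2, NUDT16 and ESF1 at 4.12 to 5.97, and RAB13 was in place 43. Of these neighbours ANP32B, a histone chaperone, had the highest vesicle level, 1700 ± 1162 CPM against 210 ± 41.1 CPM in cells (SD, n = 10), and its log2 fold change was 2.71 ± 0.37 (SE). RASSF3, a RAS association domain protein, went from 34.6 ± 15.2 to 291 ± 157 CPM (SD), and PLEKHA4 from 12.8 ± 10.5 to 88.8 ± 96.8 CPM, and both were higher in 10 of 10 lines.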

How the data were processed

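RNA of cells and of extracellular vesicles was sequenced from 10 lines. The authors deposited raw counts per gene symbol. STAR, featureCounts and hg19 are named per the submitters' processing notes; versions, annotation and strand setting are not given in the sources used here, so reads of overlapping or antisense genes cannot be told apart. All count columns matched 1 sample title each.

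Counts were fitted with edgeR 4.0.16 in R 4.3.3 (robust quasi-likelihood test, TMM, filterByExpr, cell line as block, Benjamini-Hochberg over 15130 genes, threshold 0.05). The procedure was tested on simulated counts with few genes changed and no vesicle background. That test therefore does not cover such a background or a shift of as many genes as here. Log2 CPM used a prior count of 2. The numbers pair the libraries because the labels give both compartments of a number the same line; deviations of same-line libraries from their compartment means correlated at 0.220 to 0.637. Nothing in the labels describes repeat cultures, so errors measure spread between lines. A count of 0 allows up to 3 counts, 0.0802 to 0.121 CPM in cells and 0.123 to 1.72 CPM in vesicles; this covers counting error alone, as the protocols name no molecular identifiers and PCR copies may be counted as separate reads.

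The background of a gene in a vesicle library is its exonic length times the reads per kb over the 2035 genes that never exceeded 10 counts in cells. Lengths (matched for 16815 of 17113 symbols) and 3′ UTRs (16135) came from GENCODE release 29 on GRCh38. The 6 genes, the lists and the tests were chosen with earlier results of these data known. Named were the 6, their paralogs, the 2 of each other list with the smallest adjusted p, all protrusion genes, genes next to the 6 in fold order and the 8 nearest to RAB13 and to NET1. 1 gene that this rule names is not reported here. Alternatives were other scalings, DESeq2 1.42.0, no filter, no block, each line left out, WiDr and LS123 left out, background reads subtracted, a prior count of 0.5 and shorter UTRs. A lower limit on the median cell level and motif classes over all genes were added after the data were seen.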

Additional observations from a re-analysis of the deposited data

How the results depend on the processing

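Over the 19 settings run, each of the 6 genes had a higher fitted level in vesicles, with log2 fold changes of 5.75 to 6.70 for RAB13, 3.34 to 4.33 for NET1, 3.71 to 4.65 for KIF1C, 3.96 to 4.96 for TRAK2, 4.002 to 4.92 for PITPNM3 and 3.12 to 4.03 for CDC42BPG. The top of each range came from upper-quartile scaling, which raised the 6 by 0.72 to 0.74 and the median of all genes from 0.01 to 0.76, or from subtracting background reads. Leaving out 1 line moved them less, between 5.75 and 6.16 for RAB13, 3.34 and 3.89 for NET1, 3.71 and 4.08 for KIF1C, 3.96 and 4.55 for TRAK2, 4.002 and 4.49 for PITPNM3, and 3.12 and 3.52 for CDC42BPG. Counts over genes depended on the scaling and on the other settings. Against 4322 genes higher and 4254 lower, DESeq2 size factors gave 2802 lower, library size alone 2465 lower, upper-quartile scaling 6957 higher and 1759 lower, the DESeq2 Wald test, which tested 17106 genes, 8004 higher, and subtraction of background reads, with 12923 genes tested, 2194 higher and 2695 lower. Leaving out 1 line gave 2383 (without LoVo) to 4277 genes lower and 3895 to 4749 higher. The cause of these shifts was not tested.

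Without the replicate block by line, 1 partner, 1 protrusion gene and 0 transport factors were higher, against 2, 2 and 1 with it, and the count of paralogs called did not move by more than 1.5 times. With DESeq2 size factors 3 paralogs, 5 partners and 0 protrusion genes were lower, and 1 of the actin and Arp2/3 genes was higher. With library size alone 2 paralogs, 5 partners, 0 protrusion genes and 5 transport factors were lower, and 4 actin and Arp2/3 genes were higher. With upper-quartile scaling 2 paralogs, 2 partners, 0 protrusion genes and 2 transport factors were lower, and 6 partners, 4 protrusion genes and 5 actin and Arp2/3 genes were higher. The DESeq2 Wald test gave 5 partners and 1 actin or Arp2/3 gene higher and 0 protrusion genes lower. Subtracting background reads gave 1 partner, 0 protrusion genes, 0 transport factors and 4 actin and Arp2/3 genes higher, and 4 partners, 0 protrusion genes and 4 transport factors lower. Without WiDr and LS123, 0 protrusion genes were lower. Leaving out 1 line gave 2 to 11 partners, 0 to 1 protrusion genes and 3 to 9 transport factors lower, and 1 to 2 protrusion genes higher. When 1 line was left out, the correlation of cell with vesicle level ranged from 0.24 (without SNU-C1) to 0.64 (without LS1034) for RAB13, 0.22 (without LS123) to 0.63 (without SNU-C1) for NET1, -0.66 (without WiDr) to -0.11 (without LS513) for KIF1C, -0.42 to 0.12 for TRAK2, positive only without SNU-C1, 0.45 to 0.75 for PITPNM3 and -0.40 to -0.12 for CDC42BPG. The low counts of PITPNM3 and CDC42BPG in SNU-C1, LS1034 and LS123 vesicles limit their values there.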

Other observations

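Motif clustering was also tabulated over all genes that averaged 10 CPM or more in cells, with the 6 genes left out, a step added after the data were seen. The 71 genes with at least 5 motifs within 200 bases of their longest 3′ UTR had a median log2 fold change of -0.62. By edgeR 8 of them (11.3%) were called higher in vesicles and 29 (40.8%) lower. The 3004 genes with 0 motifs had a median of -0.40, and 6.26% were called higher and 36.0% lower. With 1, 2, 3 and 4 motifs, 4.41%, 5.03%, 4.86% and 6.38% were called higher, so the share did not climb steadily with the number of motifs. In the shortest annotated UTRs the corresponding shares were 7 of 31 genes (22.6%, median -0.33) and 5.86% of 5661 genes with 0 motifs (median -0.49). For the longest UTRs, length moved with the class, from a median of 586 bases at 0 motifs to 3499 bases at 5 or more, and its part in these values was not tested. The 2 genes of the class of 71 with the largest rise that passed the test were C1orf115 (2.90 ± 0.44, SE, adjusted p = 6.83e-05, edgeR) and SH3PXD2A, a scaffold of invasive protrusions (1.90 ± 0.30, SE, adjusted p = 8.54e-05, edgeR), each higher in 10 of 10 lines. Among the genes most like RAB13 and NET1, the UTRs of PLEKHA4 and ANP32B held 0 motifs and that of NUDT16 held 22 in 5489 bases. SAMD4A, an RNA-binding translational repressor next after CDC42BPG in the order by fold, held 10 in 4371 bases.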
